A study of Sus scrofa with 8 samples.

Results

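Among the 458 genes for which normalized counts of single pigs were deposited, 4 immediate-early transcription factors were taken by their gene names, FOS (ENSSSCG00000002383), FOSB (ENSSSCG00000031616), ATF3 (ENSSSCG00000015595) and EGR1 (ENSSSCG00000014336), and each name was found in 1 row. Stranded paired-end mRNA-seq had been run on fat from under the skin of the back, with 1 library for each of 8 pigs, 4 of the Alentejano (AL) and 4 of the Bísaro (BI) breed. All were purebred castrated males, kept free range with commercial feed ad libitum and slaughtered at about 150 kg, which the labels give as the weight of the carcass, and the AL pigs had been on trial for longer. The 458 genes are those that the authors had called differentially expressed between these same pigs, so that a breed difference in any of them was part of how the table was made, and the tests below describe how far the pigs lie apart and are not independent evidence. All 10 adipocyte markers looked up were listed in the authors' table of 10710 genes, with mean normalized counts from 10.9 for PPARG to 1567 for PLIN1. Markers of other cells were listed as well, from 3.87 for the macrophage marker AIF1 to 2257 for the endothelial marker EGFL7.

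Immediate-early genes are switched on within minutes of a stimulus, without new protein synthesis, and their mRNAs are short-lived. FOS and FOSB are basic leucine zipper proteins that bind DNA only as a pair with a JUN protein, and this pair is the AP-1 factor. ATF3 is a stress-induced member of the same superfamily that pairs with itself or with JUN proteins and often represses its targets, while EGR1 is a zinc-finger factor. FOS, FOSB and EGR1 are known targets of the serum response factor, which binds a short sequence called the CArG box, whereas ATF3 is known as a target of ATF4 and of JUN proteins. In fat cells, insulin and catecholamines are among the signals known to induce such genes.

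In the genome build Sscrofa11.1, FOS spans bases 98449508 to 98451971 of chromosome 7, FOSB on chromosome 6 from 51836780 to 51844531 and EGR1 on chromosome 2 from 140440829 to 140445302, all on the plus strand, and ATF3 on chromosome 9 from 130772259 to 130829678 on the minus strand (RefSeq annotation). The RefSeq model of FOS starts at its start codon, those of EGR1 and FOSB start upstream of it, and ATF3 has 4 transcripts with 4 different starts. The 3′ end of LOC110261632, on the opposite strand, lies within 5000 bases of that of FOS, and no such neighbour was found for the other 3 genes. No strand setting for the read counting is given in the sources used here, so that reads of FOS and of this neighbour might not be told apart where they meet. In the 1000 bases before and the 1000 from each annotated start, 3 of the 4 genes held at least 1 CArG box, which 9.74% of 19559 protein-coding genes held in the same window. From 500 bases before to 50 after the start, only FOS held one, against 2.96% of all genes. The boxes are shown because they are what FOS, FOSB and EGR1 share near their starts, in capitals, with 10 bases on each side and in the direction of the gene.
FOS CArG box, chr7:98449042-98449071, first base 456 bases before the start and the start codon: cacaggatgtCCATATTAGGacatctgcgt
FOSB CArG box, chr6:51837436-51837465, 666 bases after the start, 831 before the start codon: gcgccgagctCCTTATATGGctaattgcgt
EGR1 CArG box, chr2:140440976-140441005, 157 bases after the start, 731 before the start codon: cccggaaacgCCATATAAGGagcaggaagg
EGR1 CArG box, chr2:140441014-140441043, 195 after and 693 before: ccggaaccacCCTTATTTGGgcagcgcctt
EGR1 CArG box, chr2:140441030-140441059, 211 after and 677 before: ttgggcagcgCCTTATTTGGagcgccccga
EGR1 CArG box, chr2:140441298-140441327, 479 after and 409 before: gccggtcttgCCATATTAGGgcttcctgct
EGR1 CArG box, chr2:140441320-140441349, 501 after and 387 before: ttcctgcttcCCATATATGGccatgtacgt
FOS and 1 of the boxes of EGR1 held the same 10 letters. No CArG box was found within the window of any of the 4 starts of ATF3, nor near those of JUN and JUND. The start of ATF3 at base 130785506 of chromosome 9 had TATAAA, the letters of the TATA box, 31 bases before it, as the capitals show in the direction of the gene. These 6 letters are common, and 52.8% of all genes held them in the window.
ATF3 TATA box, chr9:130785522-130785547, minus strand: gccggagggcTATAAAaggggtgatg
The cyclic AMP response element TGACGTCA was found near JUND, 188 bases before its start, and near none of the 4 genes, against 4.08% of all genes. The AP-1 site TGAGTCA and the EGR1 site GCGTGGGCG, each searched on both strands, were found near none of the 4 genes, against 21.96% and 2.97% of all genes. These matches describe the letters only, and the absence of a match says nothing about the factor.

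**Figure D1:**
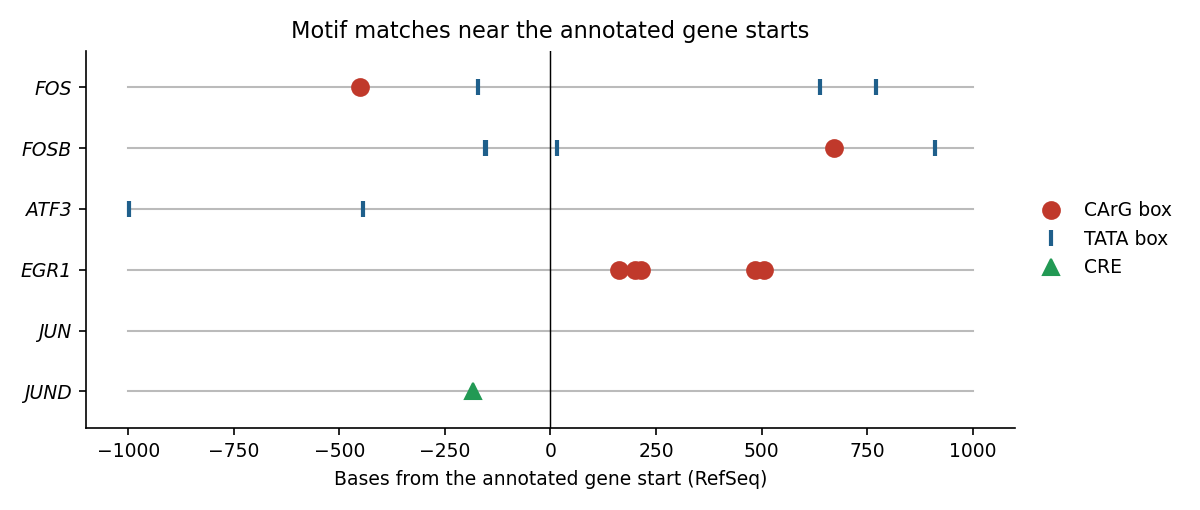
Matches of the CArG box, the TATA box and the cyclic AMP response element (CRE) by distance in bases from the annotated gene start (vertical line), for the 4 genes and for JUN and JUND; for ATF3 only the outermost of its 4 starts is drawn. EGR1 had 5 CArG boxes, FOS and FOSB had 1 each, and ATF3, JUN and JUND had none.

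The FOS protein is the most widely induced partner of JUN. FOS had 314, 117, 176 and 373 normalized counts in AL replicates 44, 49, 52 and 63, and 444, 613, 529 and 490 in BI replicates 25, 34, 36 and 37. All BI pigs lay above all AL pigs, but the gap between AL replicate 63 and BI replicate 25 was small beside the spread within AL. The log2 fold change (log2 FC), the difference of the mean log2(normalized count + 1) of AL minus that of BI, came to −1.21 with a standard error of 0.40, and the mean level was 2.12-fold higher in BI, at 519 ± 71.4 against 245 ± 119 (SD, n = 4 pigs per breed). By an exact permutation test, two-sided here and throughout, p was 0.029, which no split of 4 pigs against 4 can go below.

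FOSB encodes a second FOS family protein, whose truncated isoform is known for its long life in the cell. Its normalized counts were 69.6, 31.7, 58.1 and 102 in AL replicates 44, 49, 52 and 63, and 291, 283, 288 and 195 in BI replicates 25, 34, 36 and 37. Here the breeds lay far apart, with the lowest BI pig well above the highest AL pig. FOSB thus had a log2 FC of −2.10 ± 0.37 (standard error), with exact permutation p = 0.029, and means of 65.4 ± 29.2 in AL and 264 ± 46.4 in BI (SD).

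EGR1, which couples growth factor signals to transcription, had 188, 83.4, 80.6 and 215 normalized counts in AL replicates 44, 49, 52 and 63, and 284, 285, 404 and 299 in BI replicates 25, 34, 36 and 37. The breeds did not overlap, and 3 of the 4 BI pigs lay close together. Its log2 FC was −1.28 ± 0.39 (standard error), again with exact permutation p = 0.029, between means of 142 ± 69.9 in AL and 318 ± 58.0 in BI (SD).

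ATF3 had the fewest reads of the 4 genes, and was the only one in which the breeds overlapped. The AL pigs had 48.9, 6.35, 5.38 and 22.6 normalized counts in replicates 44, 49, 52 and 63, and the BI pigs 29.8, 116, 76.5 and 80.8 in replicates 25, 34, 36 and 37. AL replicate 44 lay above BI replicate 25, whereas the other 3 pigs of each breed lay apart. ATF3 missed the threshold by exact permutation (p = 0.057), although its log2 FC was −2.17 ± 0.82 (standard error), between means of 20.8 ± 20.3 in AL and 75.8 ± 35.4 in BI (SD). Behind the values of AL replicates 49 and 52 stand 7 and 5 reads, as recovered from the normalized counts. For these the exact 95% Poisson intervals of counting error alone are 2.55 to 13.1 and 1.75 to 12.5 normalized counts. Fitted with limma over all 458 genes, in which 99.3% of genes had an adjusted p below 0.05, ATF3 had the same log2 FC and an adjusted p of 0.0095.

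**Figure D2:**
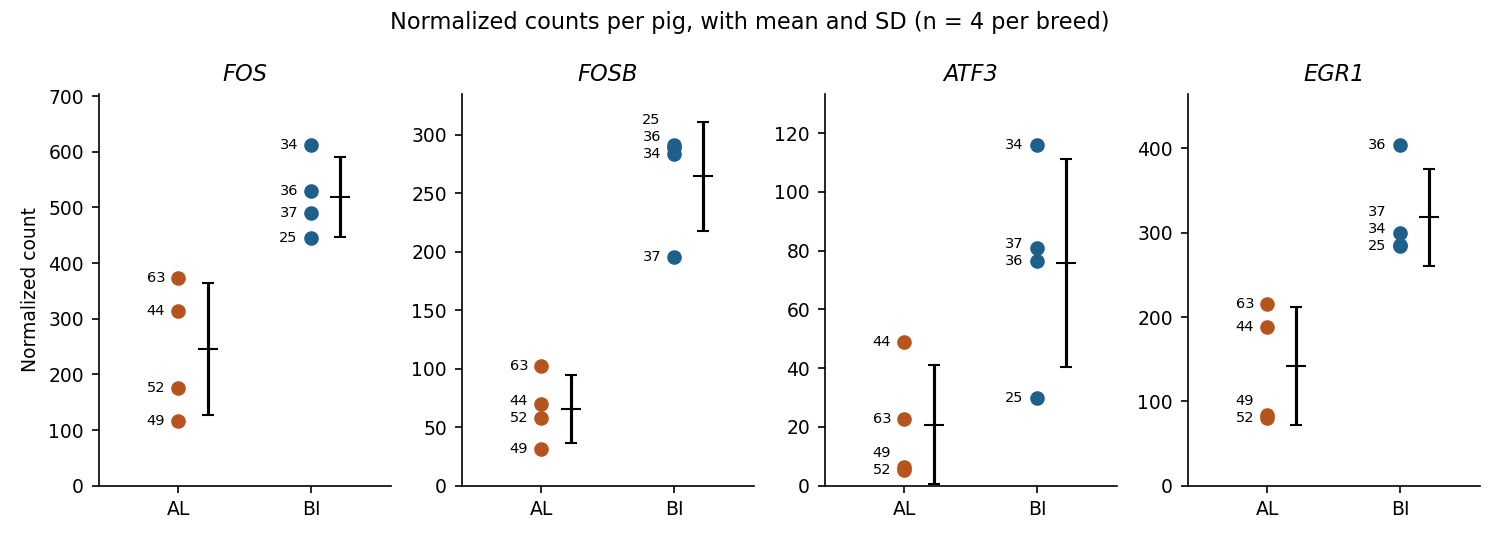
Normalized counts (vertical axes, from 0) of FOS, FOSB, ATF3 and EGR1 in each AL and BI pig, labelled by replicate number, with the mean and SD of the 4 pigs of a breed beside the points. The breeds are separate for FOS, FOSB and EGR1 and overlap for ATF3, where AL replicate 44 (48.9) exceeds BI replicate 25 (29.8).

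The breeds thus did not overlap in 3 of the 4 genes, all higher in BI, while over the 458 genes the breeds did not overlap in 79.5%, with BI higher in 31.2% and AL higher in 48.3%. A share of 3 in 4 is near that background. These shares depend on the scaling, since with the upper quartile of the called genes AL was higher without overlap in 60 genes and BI in 176, among them all 4 of these genes. Adjusted over the 458 genes by the Benjamini-Hochberg method, the exact permutation p was 0.036 for FOS, FOSB and EGR1 and 0.060 for ATF3. Since the 458 genes had already been called as different, this adjustment does not correct for their selection. The median log2 FC was −1.69 over the 4 genes and 0.83 over all 458. In bulk tissue, fewer cells of a type and less RNA per cell cannot be told apart.

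Some markers of adipocytes and of other cells were among the called genes, and only these have values per pig. Of the 10 adipocyte markers, these were the 4 genes CEBPA, FABP4, LEP and SCD. They summed to between 1554 and 2394 normalized counts in AL and 569 and 864 in BI, and 2 of the 4 were higher in AL without overlap. The other adipocyte markers, ADIPOQ and PLIN1 among them, were not called and have no values per pig. The paper gives ADIPOQ as numerically higher in BI, without statistical significance. Of the 4 endothelial markers with such values, TIE1, CLEC14A and DLL4 were higher in BI and EGFL7 was higher in AL without overlap. Their sum ranged from 2195 to 3651 in AL and from 1402 to 2012 in BI. This sum follows EGFL7, with an authors' mean of 2257, and not the other 3, with 17.6 to 26.8. Opposite-strand neighbours of EGFL7 were not searched. With no strand setting given, its counts might hold reads of such a neighbour. SPP1, the only macrophage marker of 6 with values per pig, ranged from 58.4 to 133 in AL and 3.82 to 38.5 in BI, and IL2RA, the only T cell marker of 4, from 7.25 to 19.4 in AL and 21.7 to 77.2 in BI. The muscle markers MYH7 and MYBPH went opposite ways. MYBPH was higher in AL without overlap (log2 FC 1.19), whereas the row named MYH7, whose identifier the reference table pairs with MYH6, had a log2 FC of −2.04 with overlapping breeds. Their sum, most of it MYBPH, was 183 to 268 in AL and 93.4 to 140.0 in BI, and no fibroblast or blood marker had values per pig. The part of these cell types in the differences of the 4 transcription factors was not tested.

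Within AL, the 4 genes put the pigs in nearly the same order. In each of the 4, replicates 44 and 63 were the high pair and replicates 49 and 52 the low one. FOS and FOSB ranked all 4 AL pigs identically, from replicate 63 through 44 and 52 to 49. EGR1 differed from that order only in that replicates 49 and 52, with 83.4 and 80.6 normalized counts, changed places, and ATF3 was highest in replicate 44 in place of 63. Over the 6 pairs of AL pigs and the 6 pairs of genes, 2 genes placed a pair of pigs in the same order 29 times of 36 (80.6%). By the exact Poisson intervals, not all of these orders are resolved at this depth. Within the high pair, the intervals of replicates 44 and 63 overlapped in all 4 genes, as in FOS (273 to 359 and 331 to 419 normalized counts). Those of the low pair overlapped in FOSB, EGR1 and ATF3. Between the pairs, only those of FOSB in replicates 44 (51.2 to 92.6) and 52 (43.6 to 75.7) overlapped. The identical ranking and the 29 of 36 thus rest in part on unresolved orders. Of the 458 genes, 132 (28.8%) also had both AL replicates 44 and 63 above both 49 and 52, the largest such group among the 6 ways to pair the AL pigs.

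The distance between these AL pigs was large for each gene. The normalized count of the highest AL pig was 3.19 times that of the lowest in FOS, 3.22 times in FOSB, 2.67 times in EGR1 and 9.09 times in ATF3, while the median over the 458 genes was 1.72. Among the BI pigs the same measure was 1.38, 1.49, 1.43 and 3.89 in these genes, with a median over all genes of 2.12. FOS, FOSB and EGR1 were therefore spread more widely than the median gene in AL and less widely in BI. AL replicates 44 and 63 also had the smallest size factors of the 8 pigs, 0.675 and 0.753, against 1.10 and 0.930 for replicates 49 and 52, the size factor being the number by which the authors divided the reads of a pig. Before that division, replicates 44 and 63 still had the most reads of FOS, with 212 and 281 against 129 and 164, of EGR1, with 127 and 162 against 92 and 75, and of ATF3, with 33 and 17 against 7 and 5. For FOSB the reads were 47 and 77 against 35 and 54, so that the place of replicate 44 above 52 rested on the division. The part of the size factors in this order was not tested.

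Within BI, no such common order was found. FOS was highest in replicate 34, FOSB in replicate 25, EGR1 in replicate 36 and ATF3 in replicate 34. Replicate 25 had the highest value of FOSB and the lowest of FOS, EGR1 and ATF3. The genes placed a pair of BI pigs in the same order 17 times of 36 (47.2%), from 1 of 6 pairs for FOSB with ATF3 to 5 of 6 for FOS with ATF3. For FOSB the exact 95% Poisson intervals of BI replicates 25, 34 and 36 overlapped, from 263 to 322, 256 to 312 and 257 to 322 normalized counts, so that their order is not resolved at this depth. The same holds for EGR1 in BI replicates 25, 34 and 37, with intervals of 256 to 314, 258 to 314 and 269 to 332, and the lack of a common order rests in part on these close values. A test of the difference in order between the breeds was not run.

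**Figure D3:**
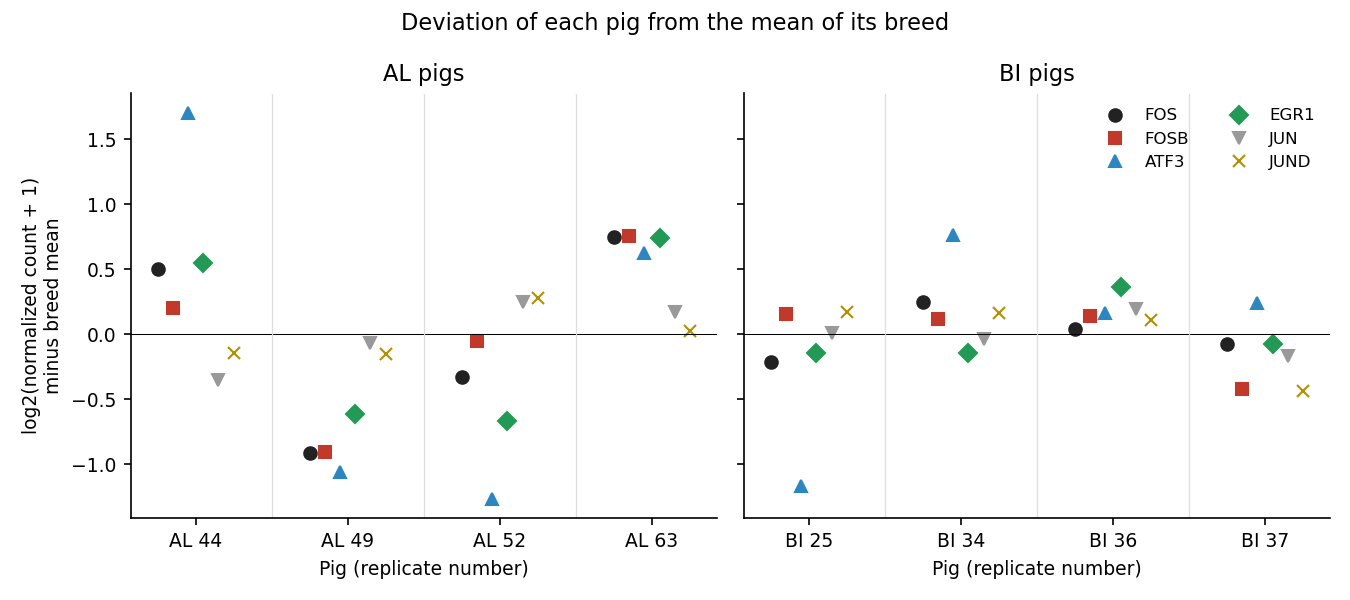
Deviation of each pig from the mean of its breed, in log2(normalized count + 1), for the 4 genes and for JUN and JUND, with AL on the left and BI on the right; each column is 1 pig and each symbol 1 gene. In AL replicates 44 and 63 the 4 genes lie above 0 and in replicates 49 and 52 below it, while JUN and JUND are highest in replicate 52, and in BI no pig has all 4 genes on the same side except replicate 36.

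With the mean of each breed removed, the deviations of the 8 pigs were compared between genes by Pearson's r, as a description with no test, in which the points share the size factors. FOS and EGR1 had r = 0.87, FOS and FOSB 0.87, FOS and ATF3 0.81, EGR1 and ATF3 0.78, FOSB and EGR1 0.74 and FOSB and ATF3 0.46. Of the other 457 genes, FOS ranked 1 in likeness to FOSB, 2 to EGR1 and 16 to ATF3, and in likeness to FOS, EGR1 ranked 5, FOSB 6 and ATF3 11. FOSB and ATF3 were the least alike, with FOSB at rank 104 for ATF3 and ATF3 at rank 61 for FOSB. The 2 breeds do not weigh equally in these r, since the deviations of FOS ran from −0.92 to 0.75 in AL and from −0.21 to 0.25 in BI, and FOS and FOSB ordered 6 of 6 pairs of AL pigs alike but 2 of 6 pairs of BI pigs. In both breeds, some of these orders were within counting error.

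The 5 genes whose deviations were most like the mean of the 4 were PCK1 (r = 0.94), the enzyme of glyceroneogenesis, BTNL9 (0.93), a butyrophilin-like membrane protein, ZNF18 (0.93), a zinc-finger protein, KLF4 (0.85), a Kruppel-like transcription factor, and ENSSSCG00000038095 (0.84), which has no name. PCK1 had 11.9, 0, 3.23 and 19.9 normalized counts in AL replicates 44, 49, 52 and 63 and 16.8, 51.5, 28.3 and 33.3 in BI replicates 25, 34, 36 and 37. In the AL pigs 1 read stood for 0.907 to 1.48 normalized counts, so that these AL values rest on few reads. No counting intervals were computed for PCK1, and its value of 0 enters r only through the pseudocount of 1. ZNF18, with 53.3, 29.9, 32.3 and 55.8 in AL and 14.5, 21.3, 17.0 and 13.3 in BI, followed the same order of AL pigs although it was higher in AL, with a log2 FC of 1.29. The 2 genes least like the mean of the 4 were SLC25A39 (r = −0.83), a mitochondrial carrier, and MCC (r = −0.85), whose product binds β-catenin, but with the upper quartile they ranked 397 and 419 of 454.

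The ratio of 2 genes within a pig hardly depends on its size factor, which enters only through the pseudocount, and was used to compare the sizes of the breed differences. The log2 ratio of FOSB to FOS was −2.16, −1.85, −1.59 and −1.86 in AL replicates 44, 49, 52 and 63, and −0.61, −1.11, −0.87 and −1.32 in BI replicates 25, 34, 36 and 37. In every BI pig FOSB was thus higher relative to FOS than in any AL pig. On average it was −1.86 in AL, with an SD of 0.23 over 4 pigs, and −0.98 in BI, with an SD of 0.31, and the difference was −0.88 ± 0.19 (standard error), with exact permutation p = 0.029. Adjusted over the 6 pairs of genes by the Benjamini-Hochberg method, the exact permutation p was 0.171, so that this difference did not pass the correction, and with 4 pigs against 4 a single pair of 6 could not have passed it.

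For the other 5 pairs the breeds overlapped. The ratio of EGR1 to FOS differed by −0.07 on the log2 scale (standard error 0.20, exact permutation p = 0.66), and that of ATF3 to FOSB by −0.08 (standard error 0.73, exact permutation p = 0.89), a standard error that leaves room for a difference in either direction. ATF3 to FOS differed by −0.96 (standard error 0.55) and EGR1 to FOSB by 0.81 (standard error 0.27), each with an exact permutation p of 0.086, and EGR1 to ATF3 by 0.89 (standard error 0.57, exact permutation p = 0.17).

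**Figure D4:**
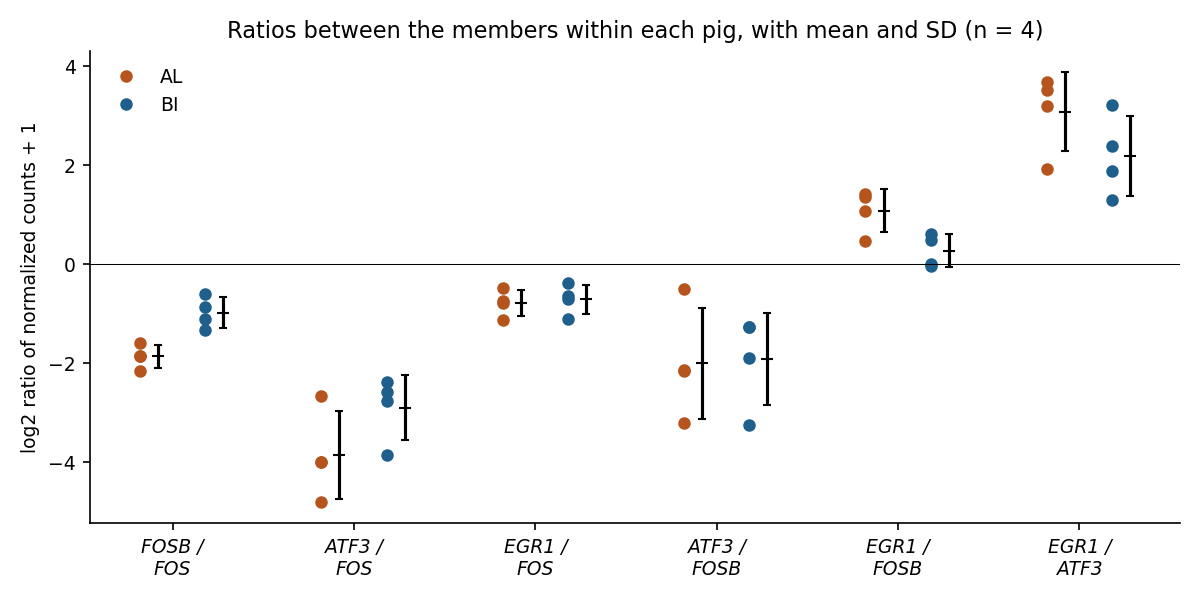
Log2 ratio of the normalized counts + 1 of 2 genes within each pig (points), for the 6 pairs, with the mean and SD of the 4 pigs of a breed beside them; the height of a pair also depends on the lengths of its genes, so that only the breeds of 1 pair can be compared. FOSB to FOS is the only pair in which the breeds do not overlap, with AL between −2.16 and −1.59 and BI between −1.32 and −0.61.

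The JUN proteins are the partners without which FOS and FOSB do not bind DNA, and 2 of them had values per pig. One row of the table carries the identifier ENSSSCG00000031912 and no gene name, and the gene name table pairs this identifier with JUN, a gene with 1 exon on chromosome 6 from 153686425 to 153687635. JUN had 320.0, 389, 485 and 461 normalized counts in AL replicates 44, 49, 52 and 63, and 830, 804, 942 and 734 in BI replicates 25, 34, 36 and 37. All BI pigs exceeded all AL pigs, with a log2 FC of −1.01 ± 0.15 (standard error) and exact permutation p = 0.029. JUND, on chromosome 2 from 59530991 to 59532846 and known for its steady expression, had 271, 269, 364 and 305 in AL and 549, 545, 524 and 360.0 in BI, in the same order of replicates. The lowest BI pig lay just under the highest AL pig, so that the breeds overlapped (log2 FC −0.70, standard error 0.18, exact permutation p = 0.057).

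Within AL, JUN and JUND had another pair of high pigs, replicates 52 and 63, than the 4 genes. JUN was lowest in AL replicate 44, one of the pigs with high FOS, FOSB, ATF3 and EGR1, and both JUN and JUND were highest in AL replicate 52. The highest AL pig had 1.52 times the JUN and 1.35 times the JUND of the lowest, less than in any of the 4 genes. Within BI, FOSB, JUN and JUND were all lowest in replicate 37, and FOSB ordered 5 of 6 pairs of BI pigs as JUN did and 5 of 6 as JUND did, while the other 3 genes shared 1 to 3 of 6 pairs with either. In likeness to the mean of the 4 genes over both breeds, JUND (r = 0.00029) ranked 254 and JUN (r = −0.12) 321 among 454 genes.

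A list of 66 immediate-early genes and AP-1 relatives was drawn from textbook knowledge with the called genes already known. Of these, 55 were in the table of 10710 genes. Values per pig were given for 17 of the 55 (30.9%) and for 4.28% of all genes in that table. Since the list was written with the called genes known, this contrast and a common direction are not independent support. All 17 had a negative log2 FC, from −2.17 in ATF3 to −0.70 in JUND, with a median of −1.28, where 195 of all 458 genes had a negative value. The breeds did not overlap in 10 of the 17, all higher in BI, which is a smaller share than the 79.5% of all genes without overlap in either direction and a larger one than the 31.2% with BI higher. ATF3 and FOSB had the largest differences, followed by CSRNP1, an immediate-early nuclear protein, with a log2 FC of −1.72. CSRNP1 had only 3 to 12 reads per AL pig. The direction was the same in all 17 with pseudocounts of 0.1 and 10, which cannot change it in a gene without overlap. It was also the same with both other scalings. These moved the median log2 FC of the called genes by −0.51 and −0.65, so that they could not test a negative direction.

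Besides the 4 genes, JUN and JUND, 11 of the 17 remain. DUSP1, the phosphatase that switches off MAP kinases, had a log2 FC of −1.48, SIK1, a kinase induced by cyclic AMP, −1.28, and PPP1R15A, which restores translation after stress, −1.15, and in these 3 and in CSRNP1 the breeds did not overlap. The same held for KLF2 with −1.21 and KLF4 with −1.10. In SIK1 (66.660 against 66.662 normalized counts) and KLF4 (132.8 against 133.1), the highest AL pig lay only just below the lowest BI pig. The breeds overlapped in KLF6 (−1.41), in ICAM1, an adhesion molecule (−1.53), in ID1, an inhibitor of helix-loop-helix factors (−1.40), in GEM, a small GTPase (−1.38), and in PER1, a clock gene (−1.06). AL replicates 44 and 63 were the 2 highest AL pigs in KLF2, KLF4, CSRNP1, GEM and PPP1R15A, as in the 4 genes, and not in DUSP1, SIK1, KLF6, ID1, ICAM1 and PER1. Before the division by size factors of these 5 genes this held for KLF4 and GEM only, since replicate 44 had 114 reads of KLF2 against 160 in replicate 49, 35 of PPP1R15A against 57 in replicate 49, and 5 of CSRNP1 against 6 in replicate 52. In likeness to the mean of the 4, KLF4, GEM (r = 0.81) and CSRNP1 (r = 0.79) ranked 4, 7 and 9 of 454 genes, and DUSP1 (r = 0.50) ranked 70.

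**Figure D5:**
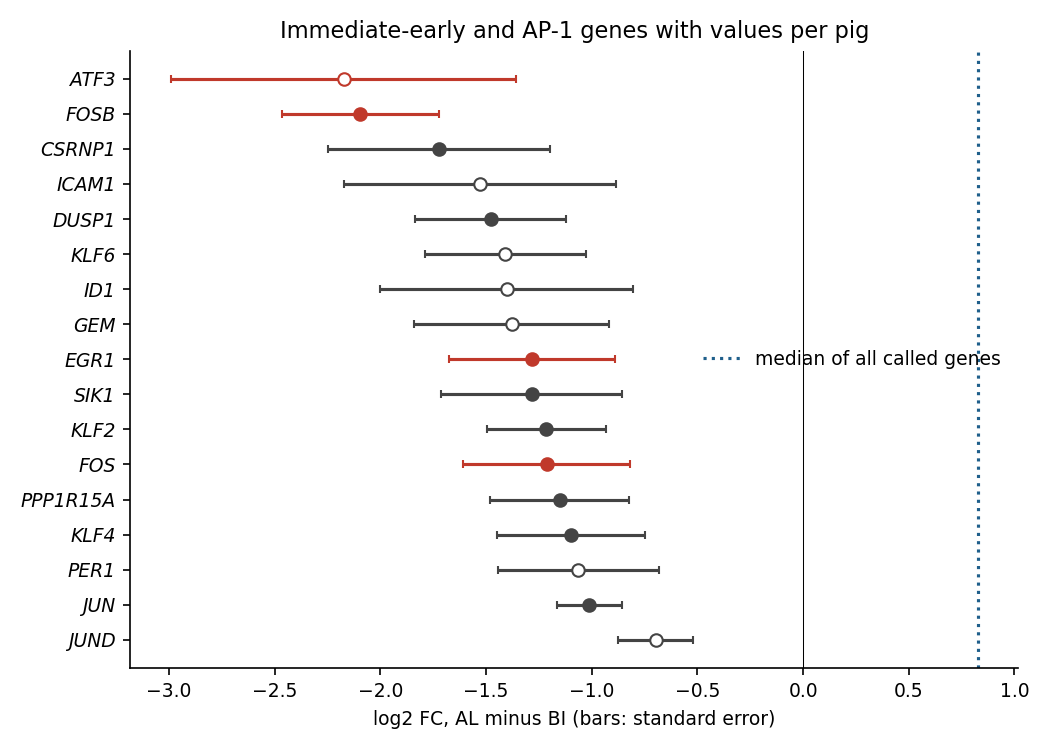
Log2 FC (AL minus BI, horizontal axis) with its standard error for the 17 listed genes with values per pig; red marks FOS, FOSB, ATF3 and EGR1, filled points are genes in which the breeds do not overlap, and the dotted line is the median of all 458 genes (0.83). All 17 points lie below 0, between −2.17 and −0.70.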

How the data were processed

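The authors trimmed the reads with Trim Galore 0.5.0, aligned them to Sscrofa11.1 with HISAT2 2.1.0, converted them with SAMtools 1.9, counted them per gene with HTSeq-count 0.11.1 and compared the breeds with DESeq2. Dividing the reads of each pig by its size factor gave the normalized counts (here a signal) that the authors deposited for the 458 genes they called. The deposited mean over all 8 pigs was used for genes without values per pig. The authors' deposited log2 fold changes with standard errors, scores (the Wald statistic) and p-values were not used. Every signal value was a whole multiple of 1 step in its pig (within 0.01 read), from which size factors of 0.675 to 1.46 and 359708 to 883622 reads per pig on the 458 genes were recovered. In some pigs too few low values were listed to check that this step was 1 read. All read numbers, size factors and counting intervals given here rest on it.

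A pseudocount of 1 was added before log2. Breeds were compared by exact permutation over the 70 splits of the 8 pigs (two-sided) and with limma 3.58.1. Counting intervals cover counting error only. Genes without a name in the file were named from a table of Ensembl identifiers (5 of 47). Named genes are the 4 genes, the listed genes with values per pig, the 5 most and 2 least like the 4, and marker genes; relatives without values per pig are given by the authors' mean. The members, lists and tests were chosen with earlier results of these data known, and the narrower motif window was added after the matches were seen. Alternatives were other pseudocounts, scalings, tests, a minimum mean of 50 normalized counts, and leaving out each pig. The calculations were tested on simulated data. Python 3.11.15, NumPy 2.4.6, pandas 2.3.3, SciPy 1.17.1, Matplotlib 3.10.9 and R 4.3.3 were used.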

Additional observations from a re-analysis of the deposited data

Results flagged for a closer look

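In 3 pigs, 4 values lay apart from those of the other 3 pigs of their breed by Dixon's criterion (a gap above its 95% critical share of the range), among 46 sets of 4 values tested, of which chance marks about 1 in 20. EGR1 was highest in BI replicate 36, with 404 normalized counts against at most 299 in the other BI pigs. FOSB was lowest in BI replicate 37, with 195 against at least 283, and so was JUND in the same pig, with 360.0 against at least 524. PER1 was highest in AL replicate 52, with 98.9 against at most 50.5.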

How the results depend on the processing

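FOS, FOSB and EGR1 kept their direction and stayed past the threshold under all 15 alternatives each, with log2 FC from −1.46 to −0.91, −2.35 to −1.79 and −1.53 to −1.06 when each pig was left out (limma over the 458 genes). ATF3, whose exact permutation p was 0.057, passed with the upper quartile (log2 FC −2.79, exact permutation p = 0.029), with limma (−2.17) and, by limma, without each pig (−2.74 to −1.75). The limma fits used only genes called as different between these same pigs, 99.3% of which passed with all 8 pigs. Both rescalings over the called genes moved log2 FC toward BI. Passing these alternatives was therefore likely beforehand and is not independent support for the 4 genes. The ratio of ATF3 to FOSB changed sign with a pseudocount of 10 (0.34) and when pigs were left out (−0.58 to 0.32, the latter without AL replicate 52, and 0.14 without BI replicate 34 or 37), as did that of EGR1 to FOS (−0.20 to 0.041, the latter without AL replicate 52). The other 4 ratios kept their sign, but with a pseudocount of 10 that of ATF3 to FOS went from −0.96 to −0.41 and that of EGR1 to ATF3 from 0.89 to 0.37 (0.59 without BI replicate 34). Rescaling over the called genes moved their median log2 FC by −0.51 (median of ratios) and −0.65 (upper quartile), and the genes without overlap went from 221 higher in AL and 143 in BI to 102 and 171, and to 60 and 176 (236 in all). The listed genes without overlap, all higher in BI, went from 10 to 16 with the upper quartile, which moves the called genes toward BI. All 17 passed limma, as did 99.3% of the 458 genes. Of the 5 genes most like the 4, 3 remained among the first 5 by Spearman's correlation and 5 with the upper quartile, with which the least alike, SLC25A39 and MCC, moved to ranks 397 and 419 of 454 (r = −0.47 and −0.58). With 500 bases before to 50 after the start, a window added after the matches were seen, only 1 of the 4 genes, FOS, held a CArG box (2.96% of all genes). The causes were not tested. The planned count-model fits were not run, because in 5 of the 8 pigs too few low values were listed to check that whole reads had been recovered. No paired analysis was possible because the breeds share no replicate number. Among the 4 genes, depth limits ATF3 most, with 5 to 33 reads per AL pig. Other listed genes also had few reads per AL pig. These were CSRNP1 (3 to 12), ICAM1 (2 to 7), KLF6 (4 to 12), ID1 (5 to 11) and GEM (6 to 14).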

Other observations

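Of the listed AP-1 and EGR relatives, 7 were in the authors' table of 10710 genes without values per pig, and the authors' own comparison of the breeds for them was not used here. The authors' mean over all 8 pigs was 251 normalized counts for JUNB, a JUN family partner of FOS. For the FOS family members FOSL1 and FOSL2 this mean was 1472 and 32.2. It was 22.8 for JDP2, which pairs with JUN proteins, and 24.8 for MAFF, a small MAF protein. For ATF7 and EGR2 it was 8.23 and 2.32. The mean of FOSL1 was above those of FOS (382) and JUN (621). Opposite-strand neighbours of these 7 genes were not searched, and no strand setting for the read counting is given. Whether the mean of FOSL1 holds reads of such a neighbour was not tested.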
